A study of Danio rerio and Garra andruzzii with 24 samples.

Results

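The p53 pathway was followed here through 5 of its classical targets, *mdm2*, *cdkn1a*, *bbc3*, *ccng1* and *baxa*. In the zebrafish genome count table, members were the genes with these symbols. They were 6 gene IDs, because 2 IDs carry the symbol *baxa*, of 35886 genes in all. In the tables assembled without a genome, the rows described here were those with a UniProt match to MDM2, CDN1A, BBC3, CCNG1 or BAX. They were 6 of 24467 rows for PAC-2 cells and 9 of 25656 rows for EPA cells. The assembled PAC-2 rows rest on the same reads as the genome counts, so they are no independent evidence. All of these members passed the filter on low counts and were tested.

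The transcription factor p53 is held at a low protein level by the ubiquitin ligase Mdm2, which is itself encoded by a p53 target gene. When DNA damage or another stress frees p53 from Mdm2, it raises the transcription of genes that stop the cell cycle, start apoptosis or repair DNA. Much of this control acts on the p53 protein, which the RNA measured here does not show.

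PAC-2 is a fibroblast line derived from zebrafish embryos, and EPA is a line derived from embryos of the blind Somalian cavefish *Phreatichthys andruzzii*. Cells of both lines were kept in darkness for 2 days and then exposed to blue light with a peak at 468 nm for 0 h (the DD control), 1 h, 3 h or 6 h. Every library therefore came from cells that had first been kept in the dark, and RNA-seq was done on 3 libraries per line and time, which makes 24. The DD control was taken at 0 h alone, so light and the time that passed cannot be told apart. Nothing states that the 3 libraries of a group are separate cultures, and the p-values thus measure a spread between libraries that may be technical.

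Libraries summed to between 20037859 and 32521127 counts over the zebrafish genes, to between 25642113 and 41784013 over the assembled PAC-2 rows, and to between 28222058 and 40053884 over the EPA rows. Of 14 fibroblast marker genes, 10 were above 1 FPKM (fragments per kilobase of gene length, scaled to the library size) in PAC-2 cells at 0 h, and *thy1*, *vim*, *dcn* and *fn1b* were below it. Their summed level went from between 1838 and 2024 FPKM at 0 h to between 1711 and 1745 FPKM at 6 h. Genes that mark other cells were mostly below 1 FPKM: 1 of 3 endothelial, 1 of 5 muscle, 2 of 5 epidermal, 1 of 4 pigment cell and none of the 4 neural and 4 blood genes were above it. Their summed levels went from between 60.3 and 62.0 to between 47.0 and 50.0 FPKM for epidermis (with *epcam* at 0), from between 31.2 and 35.9 to between 15.5 and 19.0 for muscle, and from between 9.75 and 12.6 to between 16.7 and 19.4 for endothelium at 6 h. For pigment cells, with *mitfa* and *tyr* at 0, the sum went from between 91.5 and 100.2 FPKM to between 105 and 107. The part of these markers in the results was not tested. In the EPA table, 8 of 12 fibroblast marker names had a row. In such bulk RNA, fewer cells of a type and less RNA per cell cannot be told apart.

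A predicted D-box is shown for *bbc3*. The study screened the promoters of its light-induced mitochondria and heme-related genes, *bbc3* among them, for D-boxes and E-boxes. The study picked these genes on the same libraries, so *bbc3* is not independent evidence of a light response. The other members had no entry in the results of that screen, which does not show that their promoters lack a D-box. The sequence comes from the study's own screen of upstream and 5′ untranslated sequence, 5′ to 3′. The capitals mark its half-site GTTAT. The half-site was searched on the printed strand as A or G, then TTA, then C or T. The factors matched in the screen were DBP, TEF and, in a window 1 base longer, NFIL3. The same sequence of 12 bases lies in both windows, and the share of all promoters that hold it was not computed here.
bbc3: tGTTATgtcacc

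The genome counts are given as normalized counts, which are counts scaled by TMM factors to the mean library size. A gene passed when the quasi-likelihood test of edgeR gave an adjusted p under 0.05. It was called a DEG when this p was under 0.001 and the log2 fold change was 1 or more in size. After 1 h of blue light, none of the 6 PAC-2 members passed in edgeR, against a background of 0.172% of all 18017 tested genes. In this comparison, 1 member had an unadjusted p under 0.05 in edgeR, against 1085 of all 18017 genes. DESeq2 called no member and 67 genes in all. After 3 h, 3 of 6 members passed, against a background of 21.4%, and none was among the DEGs, which made up 0.733% of genes. After 6 h, 4 of 6 members passed against a background of 29%, namely *cdkn1a* and *baxa*, which fell, and *bbc3* and *mdm2*, which rose. Of these, *cdkn1a* and *bbc3* were DEGs, against 1.54% of all genes.

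**Figure D1:**
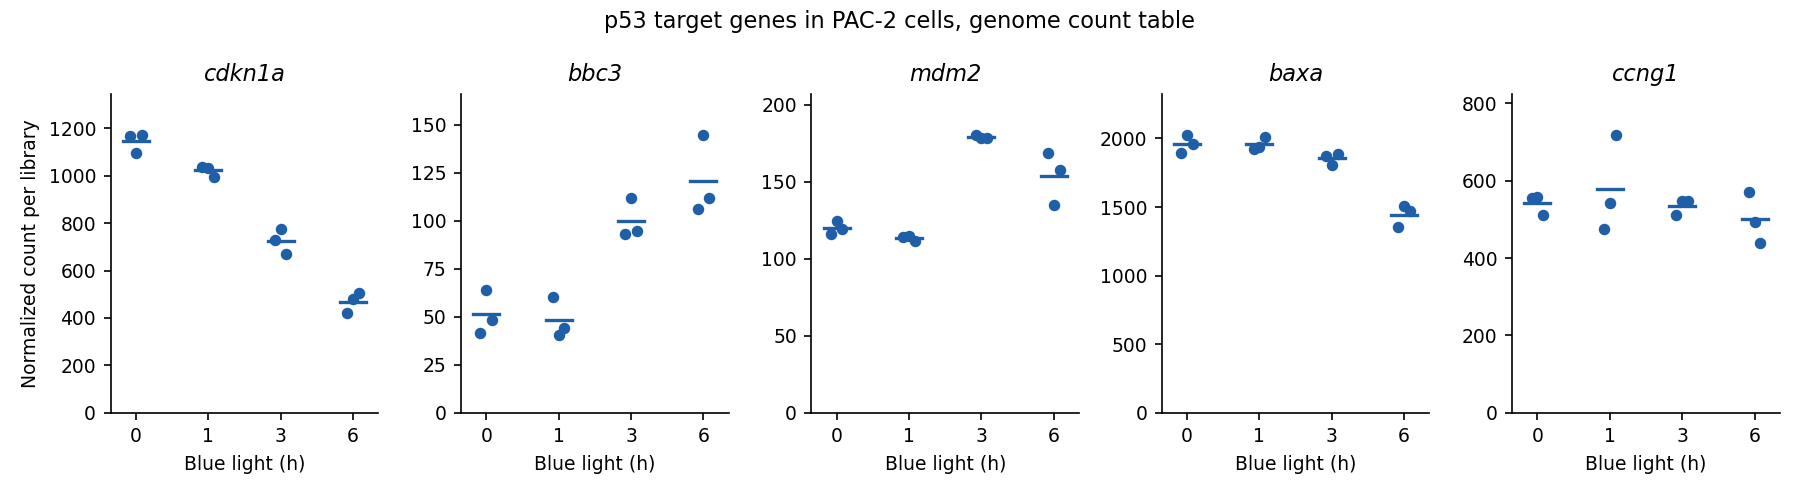
Normalized counts (y axis, from 0) of 5 member genes in the genome table against hours of blue light (x axis) in PAC-2 cells. Each point is 1 library, 3 per time, and each line is their mean. The counts of *cdkn1a* go down from 1145 to 469 on average, those of *bbc3* go up from 51.3 to 121, and those of *ccng1* overlap at every time.

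The gene *mdm2*, which encodes the ligase that degrades p53, rose after 3 h. It lies on chromosome 4 of GRCz11, from 23125689 to 23136195 on the plus strand. Its normalized counts were 116, 124 and 119 at 0 h, 114, 115 and 111 at 1 h, 180, 179 and 178 at 3 h, and 169, 135 and 158 at 6 h. The 3 h libraries lay within 2 counts of each other and above every other library. At 3 h its log2 fold change was 0.58 ± 0.12 (SE), with an adjusted p of 0.00231 in edgeR. In the assembled table of the same libraries, the MDM2 row rose to 255 from 187 ± 13.0 (SD, n = 3) normalized counts (log2 fold change 0.45 ± 0.07, adjusted p = 0.00368 in edgeR). This call was lost with only the libraries of both times in the fit (adjusted p = 0.0595) and against a fold of 1.2 (0.0914).

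At 6 h, the log2 fold change of *mdm2* against 0 h was 0.36 ± 0.12, with an adjusted p of 0.0271. This call was lost without 0 h replicate 1 (adjusted p = 0.0724), 0 h replicate 3 (0.0663), 6 h replicate 1 (0.131) or 6 h replicate 3 (0.0723) in edgeR, and in DESeq2 (0.0653). The assembled MDM2 row, at 224 normalized counts at 6 h, had a log2 fold change of 0.27 (adjusted p = 0.0242), a call that was lost without any single library but 0 h replicate 3 (adjusted p from 0.0226 to 0.0858). Between 3 h and 6 h, the difference was -0.22 with a 95% interval from -0.48 to 0.04, and *mdm2* did not pass there, while it passed at 3 h against 1 h with a log2 fold change of 0.66 (adjusted p = 0.00105). Of all genes, 18.7% passed at 3 h against 1 h and 40.5% at 6 h against 3 h.

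The other regulators of p53 did not share one direction at 3 h. Of 16 tested genes of this list, which includes *mdm2*, 2 were higher and 4 lower at 3 h, against 11.3% and 10.1% of all genes, and the list's median log2 fold change was 0.00, as over all genes. At 6 h, 3 were higher and none was lower, against 14.1% and 14.9% of all genes, with a list median of 0.09. The phosphatase gene *ppm1da*, whose mammalian counterpart Wip1 switches p53 off, rose to 450 from 331 normalized counts at 3 h (log2 fold change 0.45, adjusted p = 0.00649). The acetyltransferase gene *ep300a* and the ubiquitin ligase gene *cop1* passed at 6 h, with log2 fold changes of 0.48 and 0.18. The kinase genes *hipk2*, *prkdc* and *atr*, whose products act on p53 in mammals, were lower at 3 h, with log2 fold changes of -1.09, -0.39 and -0.24, and did not pass at 6 h. The gene *ep300b* was lower at 3 h as well (-0.32), and *mdm4*, the partner of *mdm2*, stood at -0.04 at 6 h and did not pass.

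The gene *cdkn1a* encodes p21, which inhibits cyclin-dependent kinases and is the best known p53 target in cell cycle arrest. It lies on chromosome 22, from 603382 to 607812 on the minus strand. Its normalized counts were 1167, 1096 and 1171 at 0 h, 1037, 1034 and 995 at 1 h, 728, 774 and 671 at 3 h, and 421, 481 and 506 at 6 h. The libraries of the 4 times did not overlap, each time lying below the one before. Against 0 h, its log2 fold change was -0.16 ± 0.07 (SE) at 1 h, which did not pass (adjusted p = 0.783), then -0.66 ± 0.07 at 3 h (adjusted p = 5.94e-06) and -1.29 ± 0.07 at 6 h (adjusted p = 1.22e-09 in edgeR). The 6 h value is a level 2.45-fold lower than in the DD control.

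The fall of *cdkn1a* went on through the exposure. It changed by a log2 fold change of -0.50 from 1 h to 3 h (adjusted p = 0.000165) and -0.63 from 3 h to 6 h (adjusted p = 2.21e-05). In all 14 alternative settings tested on counts, *cdkn1a* stayed a DEG at 6 h, with log2 fold changes from -1.35 to -1.22. In the assembled table, where reads were assigned by salmon without a genome, the CDN1A row went from 836 ± 37.9 (SD, n = 3) to 321 ± 24.5 normalized counts at 6 h. Its log2 fold change was -1.38 ± 0.07 (SE), with an adjusted p of 1.47e-06.

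The other CDK inhibitors did not share one direction. Of 9 tested, 1 was higher at 1 h, where 0.172% of all genes passed. At 3 h, 1 was higher and 1 lower, beside 11.3% and 10.1% of all genes. At 6 h, 2 were higher and 3 lower, *cdkn1a* included, beside 14.1% and 14.9% of all genes, with a list median of -0.24. The gene *cdkn1bb*, a p27 gene, rose from 1107 to 1588 normalized counts (log2 fold change 0.52, adjusted p = 1.02e-06), and *cdkn1d* rose by a log2 fold change of 0.57. The gene *cdkn3*, which encodes a phosphatase of CDKs, fell from 240.3 to 124 (log2 fold change -0.96), and *cdkn1cb*, a p57 gene, from 87.3 to 46.4 (log2 fold change -0.90).

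A list of cyclins, CDKs and other core cell cycle genes (*cdc25b*, *rb1*, *e2f1* and *wee1*) was also followed. Of 17 tested genes, none was higher and 8 were lower at 6 h, against 14.1% and 14.9% of all genes, and 9 did not pass, *cdk4*, *cdk6*, *cdk7* and *ccne2* among them. The list median was -0.20 against 0.00 over all genes. Those that fell were *ccnb1*, *cdk1*, *ccna2*, *ccnb2*, *cdk2* and *ccnd1*, the phosphatase gene *cdc25b* (-0.50) and the retinoblastoma gene *rb1* (-0.20). The mitotic cyclin gene *ccnb1* fell from 4540 to 2283 normalized counts (log2 fold change -0.99 ± 0.05, SE, adjusted p = 5.29e-10), its kinase *cdk1* from 765 to 406 (-0.91 ± 0.13), and the S phase and G2 cyclin gene *ccna2* from 2990 to 1803 (-0.73 ± 0.05). These values moved with the fall of *cdkn1a*, and their part in it was not tested.

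Over the 12 PAC-2 libraries, the genes whose log2 CPM (TMM-scaled counts per library size) was most like that of *cdkn1a*, among 12546 genes, were si:ch211-156j22.4, si:dkey-25o16.4, *ckap2l*, *ect2* and *top2a*. Their Pearson correlations lay between 0.985 and 0.988, and the 12 points share their libraries and the 4 times. In mammals, the products of *ckap2l*, *ect2* and *top2a* serve in the mitotic spindle, in cytokinesis and in the untangling of DNA. At 6 h, their log2 fold changes were -0.72, -0.68 and -0.68.

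The gene *ccng1* encodes cyclin G1, a p53 target that feeds back on Mdm2 in mammals. It lies on chromosome 14, from 22129096 to 22140213 on the plus strand. Its normalized counts were 556, 557 and 512 at 0 h, 476, 542 and 718 at 1 h, 512, 547 and 548 at 3 h, and 571, 493 and 440 at 6 h. The groups overlapped at every time, and 1 h replicate 3 was the highest library. Its log2 fold change at 6 h was -0.11 with a 95% interval from -0.41 to 0.19 and an adjusted p of 0.574.

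The tables differed on the level of *ccng1*. It had between 390 and 824 raw counts per library in the genome table, and the CCNG1 row of the assembled table had between 7267 and 11722 expected counts in the same libraries. Normalized counts of this row were 9003, 9740 and 9547 at 0 h and 8420, 8227 and 8530 at 6 h, which did not overlap. Its log2 fold change was -0.17 ± 0.04 (SE), with an adjusted p of 0.0193 in edgeR. This call was lost without any one of 4 libraries, namely 0 h replicates 2 (adjusted p = 0.057) and 3 (0.0618) and 6 h replicates 1 (0.0582) and 2 (0.0742). It was also lost with only the libraries of both times in the edgeR fit (adjusted p = 0.0505) and against a fold of 1.2.

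The wider list of cell cycle targets split between both directions. Of 14 tested genes, 4 were higher and 2 lower at 3 h (all genes: 11.3% and 10.1%), and 5 were higher and 4 lower at 6 h (all genes: 14.1% and 14.9%), with a median of 0.03 at 6 h. Those that rose at 6 h were the growth arrest gene *gadd45aa*, from 768 to 1199 normalized counts (log2 fold change 0.65 ± 0.06, SE), its relative *gadd45bb* (0.19), the sestrin genes *sesn2* (0.88) and *sesn1* (0.42), which restrain mTORC1 signaling, and the kinase gene *plk3* (0.31). Besides *cdkn1a*, those that fell were the antiproliferative gene *btg2*, from 358 to 216 (-0.73 ± 0.08), the p53 regulator gene *gtse1* (-0.32) and the repressor gene *e2f7* (-0.24). Sestrins and *gadd45aa* also respond to stress through other transcription factors.

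The gene *bbc3* encodes Puma, a BH3-only protein that frees Bax by binding the proteins that hold it in check. It lies on chromosome 15, from 23745217 to 23761580 on the minus strand. It had few reads, between 37 and 138 raw counts per library. Its normalized counts were 41.5, 64.0 and 48.6 at 0 h, 60.6, 40.6 and 44.4 at 1 h, 93.1, 112 and 94.6 at 3 h, and 106, 145 and 112 at 6 h. All libraries at 3 h and 6 h lay above all libraries at 0 h and 1 h, and those of 3 h and 6 h overlapped.

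For *bbc3*, the log2 fold change was -0.09 ± 0.21 (SE) at 1 h, 0.97 ± 0.20 at 3 h (adjusted p = 0.00328) and 1.24 ± 0.20 at 6 h (adjusted p = 0.00021 in edgeR), a level 2.36-fold higher than in the DD control. It passed at 3 h against 1 h with a log2 fold change of 1.05 and did not pass at 6 h against 3 h, where the 95% interval ran from -0.16 to 0.71. It passed at 6 h in all 14 alternative settings with a test and stayed a DEG in 10 of them. The adjusted p went above 0.001 when the library of 0 h replicate 1 (0.0013), that of 0 h replicate 3 (0.00124) or that of 6 h replicate 2 (0.00192) was left out, and against a fold of 1.2 (0.0011). On the log2 scale of mean FPKM + 1, which shrinks the change of so low a gene, the difference was 0.55. Neither assembled table held a row named BBC3. The authors had removed assembled transcripts of low level, so this does not show that the gene was silent. Its response in EPA cells could not be followed.

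The genes most like *bbc3* over the 12 PAC-2 libraries, in log2 CPM among 12546 genes, were *zhx3*, *wdfy2*, zgc:123305, *abhd10a* and *kat14*. Their Pearson correlations lay between 0.954 and 0.977. At 6 h, *wdfy2* and *abhd10a* had log2 fold changes of 1.11 and 1.09, and *zhx3* of 0.42.

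The gene *baxa* encodes Bax, which opens the outer mitochondrial membrane in apoptosis. Its main ID, ENSDARG00000020623, lies on chromosome 3, from 37776489 to 37785873 on the minus strand. Its normalized counts were 1893, 2024 and 1960 at 0 h, 1924, 1938 and 2008 at 1 h, 1874, 1808 and 1885 at 3 h, and 1356, 1510 and 1469 at 6 h. The 6 h libraries lay below all others. The log2 fold change was -0.08 ± 0.05 (SE) at 3 h, which did not pass (adjusted p = 0.296), and -0.44 ± 0.05 at 6 h (adjusted p = 5.78e-06 in edgeR), a level 1.36-fold lower. The 6 h libraries were also below those of 3 h, with a log2 fold change of -0.36 (adjusted p = 6.48e-05, and 0.0537 against a fold of 1.2).

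The second *baxa* ID, ENSDARG00000089129, lies next to the first, from 37766473 to 37773800 on the same strand. It had between 12 and 31 counts per library and a log2 fold change of 0.20 at 6 h, with a 95% interval from -0.48 to 0.88. Reads that the neighboring IDs share could be split between them, which makes the values of both uncertain. In the assembled table, 3 rows were named BAX, and the row with the most counts fell from 1038 ± 19.8 (SD, n = 3) to 784 ± 39.7 at 6 h (log2 fold change -0.40, adjusted p = 0.0003). The others had log2 fold changes of -0.30 and -0.12 at 6 h and did not pass.

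Among apoptosis targets, *bbc3* was the single DEG at 6 h, when 1.54% of all genes were DEGs. Of 16 tested IDs of that list, 4 were higher and 1 lower at 3 h, where 11.3% and 10.1% of all genes were, and 4 were higher and 4 lower at 6 h, where 14.1% and 14.9% of all genes were. The list median at 6 h was 0.14. The genes *apaf1* and *casp9*, which encode the core and the caspase of the apoptosome, were higher at 6 h, with log2 fold changes of 0.37 and 0.27, and so was *aifm2*, an oxidoreductase gene, with 0.32. The genes *baxb*, *triap1*, which encodes an inhibitor of apoptosis in mammals, and *perp* were lower, with -0.39, -0.34 and -0.20. The gene *pmaip1*, which encodes the BH3-only protein Noxa, had a log2 fold change of 0.15 and did not pass.

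Of 11 other tested members of the Bcl-2 family, 2 were higher and 1 lower at 6 h, a share near the 29% of all genes that passed. The BH3-only gene *bada* rose from 175 to 266 normalized counts (log2 fold change 0.60 ± 0.10, SE, adjusted p = 0.000171). The survival genes *bcl2l1* and *mcl1a* changed by 0.19 and -0.16, with adjusted p-values of 0.0389 and 0.0493.

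The repair and metabolism targets held the biggest changes of the 3 target lists. Of 12 tested, 4 were higher at 3 h and none lower (11.3% and 10.1% of all genes), and 4 were higher and 1 lower at 6 h (14.1% and 14.9% of all genes). Of these, 3 were DEGs at 6 h, against 1.54% of all genes, namely *xpc* and *ddb2*, which encode sensors of ultraviolet damage in nucleotide excision repair, and *rrm2b*, a subunit of ribonucleotide reductase. The gene *xpc* rose from 315 ± 29.7 (SD, n = 3) to 3361 ± 109 normalized counts, a log2 fold change of 3.42 ± 0.07 (SE). The gene *ddb2* rose from 40.7 ± 19.8 to 411 ± 98.7 (3.34 ± 0.41), and *rrm2b* from 121 ± 28.5 to 497 ± 37.1 (2.05 ± 0.14). The polymerase gene *polh* rose by 0.42, and *pcna*, the sliding clamp of replication, fell by 0.30 on the log2 scale. The paper ties light-induced DNA repair genes to D-boxes, and the light response of *ddb2* in cavefish cells to a D-box with an E2F site. Whether p53 had a part in these rises was not tested, and the list was chosen with earlier results of these data known.

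**Figure D2:**
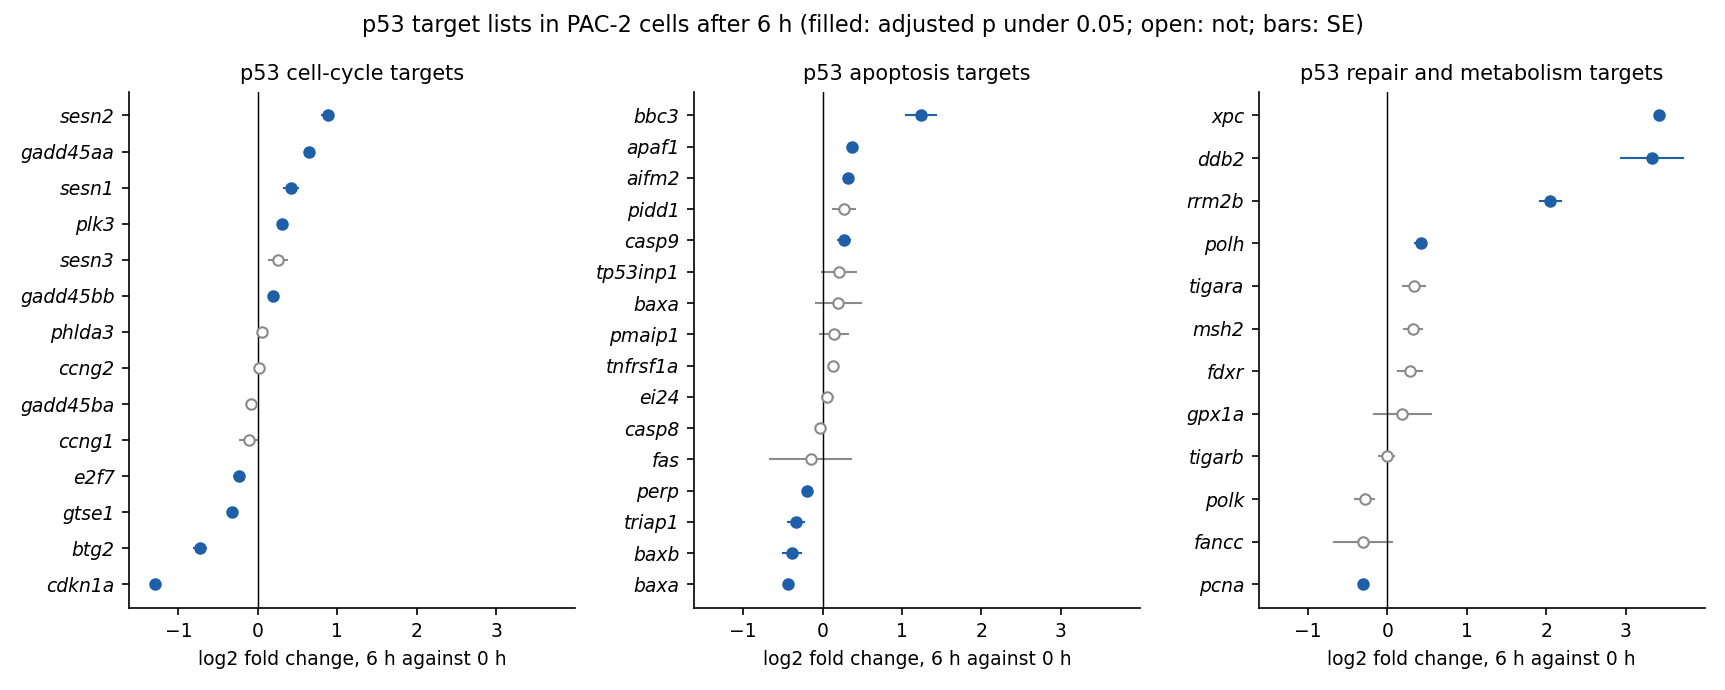
Log2 fold change at 6 h against 0 h (x axis, with SE bars) of every tested gene of 3 lists of p53 targets (y axis) in PAC-2 cells. Filled points passed at an adjusted p under 0.05 and open points did not. In each list genes lie on both sides of 0, with *cdkn1a* lowest at -1.29 and *xpc* highest at 3.42.

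In the genome table, the levels of the members differed by more than an order of magnitude per length. At 0 h, *baxa* stood at 37.0 ± 1.26 FPKM (SD, n = 3) and *cdkn1a* at 36.6 ± 1.40, which did not differ beyond their spread. Next came *ccng1* with 8.72 ± 0.39, *mdm2* with 1.199 ± 0.042 and *bbc3* with 0.525 ± 0.118. The place of *ccng1* in this order holds for the genome table alone, since the assembled CCNG1 row had 9430 normalized counts at 0 h against 1038 for the main BAX row and 836 for CDN1A, not scaled by length. At 6 h, *cdkn1a* was down to 14.9 ± 1.42 FPKM and *bbc3* up to 1.23 ± 0.21, a level that overlapped the 1.53 ± 0.17 of *mdm2*.

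In EPA cells, none of the 9 rows passed in edgeR at any time. Over the 27 tests of these rows at 3 times, 2 had an unadjusted p under 0.05, and DESeq2 called 2, both at 6 h. Of all 23118 EPA rows tested at 6 h, 4510 had an unadjusted p under 0.05 in edgeR, and DESeq2 called 2725. By adjusted p in edgeR, 0.316% of all EPA rows passed at 1 h, 1.28% at 3 h and 6.26% at 6 h. In the assembled PAC-2 table, none of the 6 rows passed at 1 h in edgeR, with none at an unadjusted p under 0.05 and none called by DESeq2, 2 passed at 3 h and 4 at 6 h, against backgrounds of 0.107%, 15% and 22.4%.

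The EPA row for CDN1A had normalized counts of 1061, 1002 and 1110 at 0 h, 994, 1136 and 1093 at 1 h, 1086, 1130.5 and 1081 at 3 h, and 1207, 1268 and 1148 at 6 h. The 6 h libraries lay above those at 0 h, the opposite side from PAC-2 cells. The log2 fold change was 0.19 with a 95% interval from 0.05 to 0.33, an adjusted p of 0.112 in edgeR and 0.0235 in DESeq2, so the call depended on the tool. The MDM2 row with the most counts, at 6933 ± 98.0 (SD, n = 3) normalized counts at 0 h, had a log2 fold change of 0.03 at 6 h (95% interval from -0.04 to 0.09). The CCNG1 row, at 37084 ± 484 (SD, n = 3) normalized counts at 0 h, had one of 0.04 (95% interval from -0.02 to 0.10).

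The 3 BAX rows of EPA cells had log2 fold changes of 0.20, 0.06 and 0.06 at 6 h. The first of them, named BAX_RAT, had an adjusted p of 0.0864 in edgeR and passed in DESeq2 (0.0463) and without 6 h replicate 2 (0.0258 in edgeR). The other 3 MDM2 rows, with between 123 and 590.2 normalized counts per library over all times, had log2 fold changes between -0.23 and 0.03 at 6 h.

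The responses of the cell lines were then compared with an interaction term, on counts summed per UniProt name. The 4 member names shared by both assembled tables were CDN1A, MDM2, BAX and CCNG1, among 6236 names tested. A name can join several rows, as BAX does with 3 in each line, so BAX cannot be assigned to *baxa* alone. A shared name does not show that the rows are of the same gene in both lines. At 1 h, none of the 4 responses differed in edgeR, against a background of 1.22% of all names, with none at an unadjusted p under 0.05 and none by DESeq2. At 3 h, CDN1A and MDM2 differed, against a background of 27.4%, and at 6 h all 4 did, against 46.9% of all names. The BAX difference at 3 h, -0.08 with an adjusted p of 0.247 in edgeR, passed with the most abundant row per name (-0.15, adjusted p = 0.0495) and with library totals only (-0.25, adjusted p = 0.00203).

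The CDN1A response differed most. In PAC-2 cells, its level at 6 h was 36.1% to 41.7% of the mean at 0 h, and in EPA cells 106% to 117%. The difference between the log2 fold changes was -1.50 ± 0.08 (SE, 95% interval from -1.67 to -1.33), with an adjusted p of 6.45e-12 in edgeR. At 3 h, the difference was -0.62 ± 0.08 (adjusted p = 5.11e-06).

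The MDM2 response differed in the other direction. At 0 h, the summed normalized counts of MDM2 were 202 to 230 in PAC-2 cells and 6700 to 7075 in EPA cells. Cell line and assembly cannot be told apart in these starting levels, so only changes were compared. In PAC-2 cells, its level at 3 h was 127% to 142% of the mean at 0 h, and in EPA cells 101% to 103%. The difference was 0.43 ± 0.07 at 3 h (adjusted p = 9.81e-05, and 0.0942 against a fold of 1.2) and 0.34 ± 0.07 at 6 h (adjusted p = 0.000445 in edgeR). For BAX, the level at 6 h was 81.0% to 84.7% in PAC-2 cells and 100.5% to 105% in EPA cells, a difference of -0.31 ± 0.05 (adjusted p = 4.95e-05). The CCNG1 difference at 6 h was -0.13 ± 0.05 (adjusted p = 0.0441 in edgeR), and without single libraries its adjusted p ranged from 0.0123 to 0.125, above 0.05 for 9 of 12 libraries. These were all but 0 h replicates 1 and 3 of PAC-2 cells and 6 h replicate 2 of EPA cells.

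**Figure D3:**
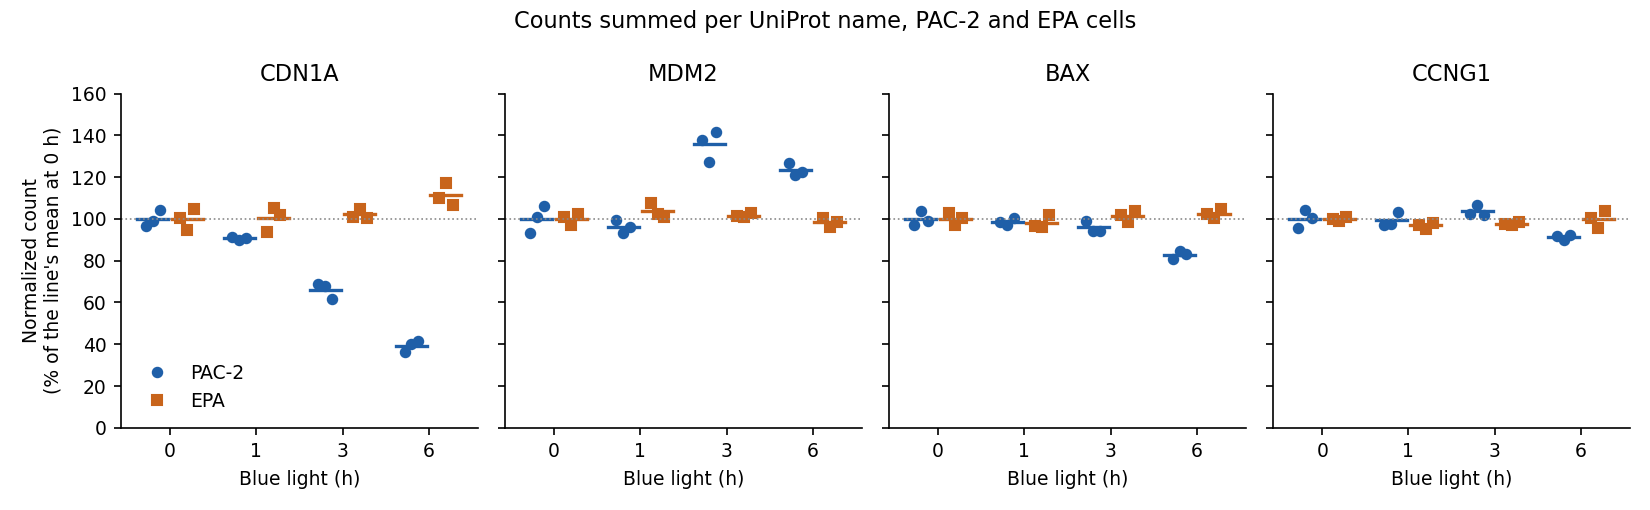
Normalized counts summed per UniProt name, as a percentage of the line's mean at 0 h (y axis, from 0), against hours of blue light (x axis) for 4 names in PAC-2 cells (circles) and EPA cells (squares). Points are libraries, 3 per time, lines are their means and the dotted line marks 100%. At 6 h, CDN1A lies between 36.1% and 41.7% in PAC-2 cells and between 106% and 117% in EPA cells.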

How the data were processed

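The authors' sequencing provider mapped the PAC-2 reads to GRCz11, and the authors deposited raw counts per gene and FPKM values. Which aligner, counting program, annotation release and strand option they used is not given in the sources used here. For both lines, the authors deposited expected counts per Trinity gene from salmon, after a de novo assembly, a filter on TPM and naming by UniProt, and these were rounded here. Each table's 12 libraries entered 1 fit in edgeR 4.0.16 (R 4.3.3), using TMM factors, filterByExpr by time, robust dispersions and quasi-likelihood tests with Benjamini-Hochberg adjustment over all genes. The fit leaves 8 residual degrees of freedom, and 16 in the fit of both lines. SEs are the absolute log2 fold change over the root of F, and 95% intervals use these degrees of freedom. For rows with few counts, these SEs and intervals can be too narrow. At 1 h, the MDM2 difference between the lines was -0.10 ± 0.07, yet its unadjusted p in edgeR was 0.28. Alternatives used DESeq2 1.42.0 and limma 3.58.1. Named genes were all members, the DEGs of each list or else up to 4 passed genes with the biggest changes at 6 h, and the 5 genes most like *cdkn1a* and *bbc3*. Other genes were named after their values were seen. Of the genes the rule names, 1 is not reported here. Members and lists were chosen with earlier results of these data known. Fits were tested on simulated data for bias, direction and false calls, and no bar was set on the share of changes found. A row that did not pass may still have changed. Replicates differed beyond sampling noise. The deposited gene ontology annotations were not used.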

Additional observations from a re-analysis of the deposited data

Results flagged for a closer look

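The responses of PAC-2 and EPA cells to blue light, measured as log2 fold changes against 0 h, differed by the interaction test in edgeR for 6 combinations of name and time. The PAC-2 change minus the EPA change was -0.62 for CDN1A and 0.43 for MDM2 at 3 h, when 27.4% of all names differed. At 6 h, when 46.9% of all names did, it was -1.50 for CDN1A, 0.34 for MDM2, -0.31 for BAX and -0.13 for CCNG1. Against a fold of 1.2, MDM2 at both times, BAX and CCNG1 no longer passed. The CCNG1 call was also lost without any one of 9 of 12 libraries. The lines are of different species and were assembled separately, so species, line and assembly cannot be told apart.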

How the results depend on the processing

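For 101 results there were 1534 alternative values. Of these, 1441 stayed on their side of the threshold, stayed within 1.5 times for counts, or had no test. Another 39 fell below the threshold, 8 rose above it and 46 counts moved by over 1.5 times. No change reversed where the main or the alternative value passed. Changes that passed in neither could switch sign, as *bbc3* did at 1 h (-0.09, and 0.10 without 0 h replicate 2). The 6 h change of *mdm2* in the genome table was 0.37 with no filter (adjusted p = 0.0656), 0.36 in DESeq2 (0.0653), 0.38 with only both times in the fit (0.0538) and 0.36 against a fold of 1.2 (0.358), and without single libraries it ran from 0.29 to 0.45. Against a fold of 1.2, by glmTreat of edgeR, 1618 genes passed in the genome table at 6 h in place of 5232, 1412 in place of 5242 in the assembled PAC-2 table, 279 in place of 1447 in the EPA table and 969 names in place of 2925 in the comparison of the lines, where MDM2 (0.34, adjusted p = 0.235), BAX (-0.31, 0.273) and CCNG1 (-0.13, 1) no longer passed. The EPA count at 6 h was 2725 by DESeq2, 377 with only both times in the fit, and from 800 to 1702 without single libraries. The CCNG1 difference between the lines was -0.13 with the most abundant row per name (adjusted p = 0.0568), -0.10 with library totals only (0.059) and from -0.16 to -0.10 without single libraries. The cause of these shifts was not tested.

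At 3 h, counts in the genome table went from 3858 to 746 against a fold of 1.2, to 2348 without 0 h replicate 1 and to 2351 without 3 h replicate 2. At 3 h against 1 h they went from 3364 to 553 and, without single libraries, to as few as 1675, and at 6 h against 3 h from 7305 to 2760. At 1 h, 31 genes became 11 against a fold of 1.2, 67 by DESeq2 and 16 with only both times. In the assembled PAC-2 table, the 25 rows of 1 h became 10, 249 and 3, with 13 under the replicate block, and the 3517 rows of 3 h became 592, 5462 and 917, and from 1479 (without 3 h replicate 2) to 4262 without single libraries. Low counts were also left when 0 h replicate 1 (1655) or 2 (1818) or 3 h replicate 1 (1846) was dropped. In the EPA table, the 73 rows of 1 h became 35, 467 and 35, and the 297 rows of 3 h became 102, 927 and 146, and between 187 and 213 without single libraries. Scaling to library totals only moved the median of all genes by -0.10 at 3 h in the genome table and by -0.12 in the assembled PAC-2 table, and *baxa* passed there (-0.18, adjusted p = 0.0149 in edgeR).

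Same-numbered libraries deviated together with correlations from -0.07 to 0.16, so the numbers were not read as pairs. With the replicate block, the 6 h values were -1.29 for *cdkn1a*, 1.24 for *bbc3*, 0.36 for *mdm2* and -0.44 for *baxa*, 5243 genes passed in the genome table, 4855 in the assembled PAC-2 table and 1206 in the EPA table, and no member's call at 6 h changed. The motif alternative for promoters was not run. Few reads limit *bbc3* and the second *baxa* ID most.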
